A study of Mus musculus with 7 samples.

Results

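Mitochondrial ribosomal protein genes were taken as the rows of the expression table whose symbol begins with Mrpl or Mrps and a digit, which gave 74 of 22016 rows, each with a symbol of its own. All 74 passed the filter on low values (an average of 1 FPKM or more). The rule reads symbols only, but the gene set was proposed with earlier results of these data known. FPKM are fragment counts divided by transcript length and by the size of the library. The libraries held ribosome-bound RNA of cholinergic cells of the mouse ventral striatum, isolated by translating ribosome affinity purification (TRAP), in which only some cells have a tagged ribosomal protein to pull down, here those of the ChAT TRAP line. The KO group (KO1 to KO4) carried the ChAT TRAP tag, floxed p11 alleles (p11 fl/fl; p11 is the product of S100a10) and ChAT Cre, and the WT group (WT1 to WT3) were littermates with the tag and the floxed alleles but without Cre. Each library pooled 6 ventral striata of 3 mice, and the mice were 8 to 12 weeks old on a C57/Bl6N background, males and females being held. Cre was present only in KO, so an effect of Cre and one of the deletion cannot be told apart. No treatment was given. The tag marks the cells in which the transgene is active, and RNA of other cells can be carried over.

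The mitochondrion has a ribosome of its own, which makes the few proteins encoded in mitochondrial DNA, all of them parts of the respiratory chain or the ATP synthase. Its RNAs come from mitochondrial DNA, whereas all its proteins are encoded in the nucleus, translated on cytosolic ribosomes and imported. TRAP captures cytosolic ribosomes, so the measurement reports the RNAs from which mitochondrial ribosomal proteins are being made, not mitochondrial translation. Some of these proteins descend from bacterial ribosomal proteins and others were added in the mitochondrial lineage. Neurons that fire tonically, such as striatal cholinergic interneurons, depend on oxidative phosphorylation for their energy.

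By the current family names of the proteins, 48 members belonged to the large subunit and 25 to the small subunit. Of the large subunit members 29 had a bacterial homologue and 19 were specific to mitochondria, and of the small subunit members the counts were 16 and 9. Mrps30 and Mrps18a carry small subunit symbols but are large subunit proteins. Mrps36 is no longer counted as a ribosomal protein, since its product (KGD4) links the subunits of the oxoglutarate dehydrogenase complex of the citric acid cycle. It was kept as a member because the choice was made by symbol.

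Promoter sequences from RefSeq (GRCm38.p6, the assembly of mm10) were found for 65 of the 74 members. They are shown for Mrps36, Mrpl42 and Mrpl28, which were picked for a small p in either direction (Mrps35 had no entry). Mrpl12 and Mrps21 were added because they hold the letters of a site for NRF1, a factor known to drive nuclear genes of mitochondrial proteins. Of the named members with these letters, Mrpl12 had the smallest p and Mrps21 the highest level. Each sequence runs 5′ to 3′ on the gene's strand from 250 bases before to 30 bases after the transcript start. Capitals mark matches, on either strand, to the letters GCGCA and GCGC with 1 free base between them (NRF1), CCGGAAG (the ETS family, to which GABPA belongs), AAGATGGC (YY1) and GGGCGG (the GC box of SP1, added after the first matches were seen), and matches to different motifs overlapped 0 times in these windows. The members are Mrps36 (chr13:100744630-100744909, minus strand), Mrpl42 (chr10:95501920-95502199, minus strand), Mrpl28 (chr17:26123253-26123532, plus strand), Mrpl12 (chr11:120484387-120484666, plus strand) and Mrps21 (chr3:95871485-95871764, minus strand).
Mrps36: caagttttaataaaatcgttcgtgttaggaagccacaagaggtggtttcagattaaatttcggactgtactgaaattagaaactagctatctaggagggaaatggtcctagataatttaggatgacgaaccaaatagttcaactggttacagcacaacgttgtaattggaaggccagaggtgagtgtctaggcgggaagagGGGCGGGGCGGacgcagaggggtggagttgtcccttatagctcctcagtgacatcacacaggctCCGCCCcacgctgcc
Mrpl42: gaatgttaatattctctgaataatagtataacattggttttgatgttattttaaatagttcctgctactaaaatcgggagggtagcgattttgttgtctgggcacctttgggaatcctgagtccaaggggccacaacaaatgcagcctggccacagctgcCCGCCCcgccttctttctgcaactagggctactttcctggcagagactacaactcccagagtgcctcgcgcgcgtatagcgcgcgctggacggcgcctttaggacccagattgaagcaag
Mrpl28: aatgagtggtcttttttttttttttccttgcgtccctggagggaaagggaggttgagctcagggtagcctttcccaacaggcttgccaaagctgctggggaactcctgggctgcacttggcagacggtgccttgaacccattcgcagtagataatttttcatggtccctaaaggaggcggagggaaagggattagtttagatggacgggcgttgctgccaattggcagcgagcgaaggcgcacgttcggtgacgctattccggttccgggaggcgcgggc
Mrpl12: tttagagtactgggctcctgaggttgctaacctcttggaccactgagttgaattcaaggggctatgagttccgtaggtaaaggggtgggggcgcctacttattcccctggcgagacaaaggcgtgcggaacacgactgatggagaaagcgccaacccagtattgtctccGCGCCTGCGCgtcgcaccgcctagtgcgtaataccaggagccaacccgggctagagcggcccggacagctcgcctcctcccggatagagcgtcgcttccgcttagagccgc
Mrps21: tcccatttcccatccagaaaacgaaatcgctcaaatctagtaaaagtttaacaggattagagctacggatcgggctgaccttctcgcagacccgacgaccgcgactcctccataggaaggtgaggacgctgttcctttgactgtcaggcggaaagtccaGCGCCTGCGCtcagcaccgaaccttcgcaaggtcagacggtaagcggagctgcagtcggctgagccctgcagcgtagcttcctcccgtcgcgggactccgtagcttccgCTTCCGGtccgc

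Over the same 280-base windows, the NRF1 letters were found in 18.5% of the 65 members with an entry and in 4.98% of all 27025 genes with one. The ETS letters were found in 32.3% of members and 9.48% of all genes, the YY1 letters in 12.3% and 2.66%, and the GC box in 49.2% and 37.3%. The letters TATAAA of a TATA box were found in 7.69% of members and 15.1% of all genes. The 27025 genes include many that are not among the 10089 tested rows, so the members are not set against expressed genes here. A match describes the letters of the window only. In the windows shown, Mrps36 had 3 GC boxes and Mrpl42 had 1, Mrpl12 had 1 NRF1 site, Mrps21 had 1 NRF1 and 1 ETS site, and Mrpl28 had 0 matches.

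Mrps11 and Mrpl46, which encode a small and a large subunit protein, lie head to head on chromosome 7, and their RefSeq transcript starts are 42 bases apart. Their shared region is shown on the plus strand (chr7:78783060-78783160), from 30 bases inside Mrpl46, which runs to the left, to 30 bases inside Mrps11, which runs to the right, with a GC box in capitals.
Mrps11 and Mrpl46: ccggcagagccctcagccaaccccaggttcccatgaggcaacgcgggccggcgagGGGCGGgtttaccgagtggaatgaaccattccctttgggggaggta

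Before the members, the targeted gene and the makeup of the libraries were checked. S100a10 stood at 127.1, 138.8, 189.8 and 89.2 FPKM in KO1 to KO4, against 329.5, 332.7 and 387.5 FPKM in WT1 to WT3, and the KO mean was 38.9% of the WT mean. Its log2 fold change was -1.40 (SE 0.22, limma adjusted p = 0.0098), and it was -1.44 without WT1 and without WT2, where it missed the threshold (limma adjusted p = 0.063 and 0.058). Throughout, a fold change is the mean of log2(FPKM + 1) in KO less that in WT, and the p-values are of limma's moderated test, adjusted by the Benjamini-Hochberg method over all 10089 tested rows with a threshold of 0.05. Cholinergic markers were abundant in every library, with Chat at 205 ± 53.5 FPKM in KO (SD, n = 4) and 248 ± 51.9 FPKM in WT (SD, n = 3). KO1 stood apart from the other libraries. Its FPKM summed over all rows was 379417, against 462624 to 511328 in KO2 to KO4 and 418931 to 440720 in WT. Summed markers of medium spiny neurons (6 of 8 listed in the table) reached 273 FPKM in KO1, against 79.9 to 111 in KO2 to KO4 and 69.2 to 94.8 in WT. Summed markers of other interneurons (7 of 7) reached 91.8 FPKM in KO1, against 10.3 to 30.2 in KO2 to KO4 and 10.1 to 14.8 in WT, those of oligodendrocytes (6 of 7) 77.3 against 33.7 to 46.9 and 31.9 to 37.1, and those of astrocytes (7 of 7) 77.0 against 50.9 to 64.3 and 53.0 to 57.5 FPKM. Summed cholinergic markers (8 of 9) were lowest in KO1, with 924.5 FPKM against 1022 to 1123 in KO2 to KO4 and 1194 to 1340 in WT. Microglial markers summed to at most 2.6 FPKM and endothelial markers to at most 4.0 FPKM in any library. No marker in the table was at 0 in all 7 libraries. The library numbers in the table's header are higher for every KO than for every WT library, so whatever they track cannot be told apart from the groups.

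Members were well expressed and spread over a wide range of levels. Averaged over the 7 libraries they ran from 5.36 to 341 FPKM with a median of 39.3, where the median of all tested rows was 9.54 FPKM. Of the 74, 16 reached 100 FPKM and 19 stayed under 20, and the 10 most abundant held 42.2% of the summed FPKM of the members. FPKM is scaled to length, but the lengths used and the handling of multiple matches are not given, so levels of different genes compare only roughly.

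The small subunit held the most abundant member. Mrps21, a small subunit protein with a bacterial homologue, stood at 374 ± 46.3 FPKM in KO (SD, n = 4) and 297 ± 18.4 FPKM in WT (SD, n = 3). Mrps33, a mitochondrion-specific protein of the same subunit, stood at 322 ± 68.5 FPKM in KO and 231 ± 21.5 FPKM in WT, and Mrps6, whose protein has a bacterial homologue, at 209 ± 66.1 FPKM in KO and 167 ± 24.3 FPKM in WT. Exons of Mrps6 overlap those of Slc5a3, and other genes hold 18.4% of its 31-mers and 14.5% of those of Mrps21. In the large subunit, Mrpl33 was the most abundant with 327 ± 78 FPKM in KO and 288 ± 24.5 FPKM in WT, followed by Mrpl42 and by Mrpl20 (167 ± 18.3 FPKM in KO and 169 ± 11.5 FPKM in WT). These orders are of means, and neighbours such as Mrps21 and Mrpl33 lay within each other's spread between libraries. Of these 6 genes the log2 fold changes of Mrps21, Mrpl33, Mrps6 and Mrpl20 were 0.33, 0.16, 0.26 and -0.02, with limma adjusted p of 0.32, 0.70, 0.63 and 0.95.

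At the low end, Mrpl45, whose product anchors the ribosome to the inner membrane at the exit of the protein tunnel, stood at 5.3 ± 0.88 FPKM in KO and 5.43 ± 1.1 FPKM in WT. Mrpl19 stood at 6.13 ± 0.84 FPKM in KO and 7.43 ± 0.72 FPKM in WT. Other genes hold 37.9% of its 31-mers (all stretches of 31 bases), and Gcfc2, whose exons overlap it, shares the most. The lowest small subunit members were Mrps27, a pentatricopeptide repeat protein, with 9.65 ± 1.07 FPKM in KO and 11.6 ± 1.79 FPKM in WT, and Mrps35, described below with the members lower in KO. The fold changes of Mrpl45, Mrpl19 and Mrps27 were -0.03, -0.25 and -0.24 (limma adjusted p = 0.96, 0.45 and 0.45).

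The subunits had similar typical levels. The median over members was 39.3 FPKM for the large and 36.6 FPKM for the small subunit, and the ratio of the large to the small median ran from 1.02 in KO2 to 1.12 in KO1 among KO libraries and from 1.08 to 1.16 among WT libraries. Members with a bacterial homologue had a median of 43.8 FPKM and mitochondrion-specific members one of 33.9 FPKM. Shorter members tended to have higher levels. Across the 74 members, Spearman's rho between mean level and median annotated transcript length was -0.49, and across 10023 tested rows with an annotated transcript it was -0.20. Genes are not independent replicates and FPKM itself divides by length, so this is a description only.

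**Figure D1:**
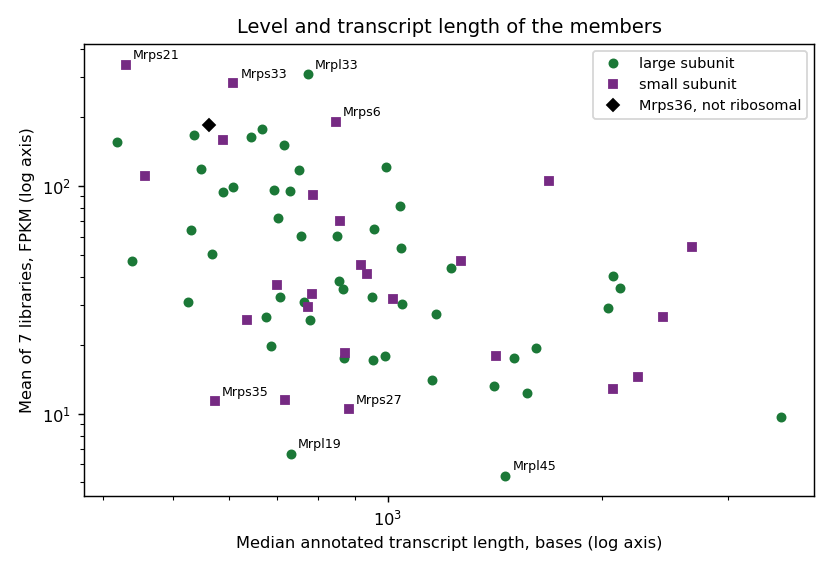
Mean level of each member over the 7 libraries (FPKM, log axis) against its median annotated transcript length (bases, log axis), by subunit. Mrps21, Mrpl33 and Mrps33 lie above 200 FPKM, and Mrpl45 and Mrpl19 lie below the others.

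With all libraries, 0 of the 74 members differed between KO and WT with limma after adjustment, where 1.74% of all tested rows did (0.971% higher and 0.773% lower). At an unadjusted p under 0.05 limma found 13 members, 7 higher and 6 lower in KO (9.46% and 8.11%), where the shares of all tested rows were 10.1% and 8.69%, 18.8% in all. KO and WT values did not overlap for 11 members, 4 above and 7 below WT (5.41% and 9.46%), against 9.11% and 8.29% of all tested rows, 17.4% in all. The members' shares were at or below those of all rows, apart from values below WT, where 9.46% stood against 8.29%. The fold changes were positive for 41 members and negative for 33 (53.4% of all rows were positive), with a median of 0.03, and the median of all tested rows was also 0.03. The large subunit median was 0.01 and the small subunit median 0.03. The 95% confidence interval of the fold change included 0 for 61 members and had a median width of 0.81 on the log2 scale. Other settings made some calls with all libraries, 3 members with quantile normalization (Mrpl42, Mrpl28 and Mrps36, where 2.23% of all rows passed), 1 at a mean of 5 FPKM or more (Mrps36, where 2.1% passed) and 15 with array weights, which count variable libraries less (where 16.7% passed).

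**Figure D2:**
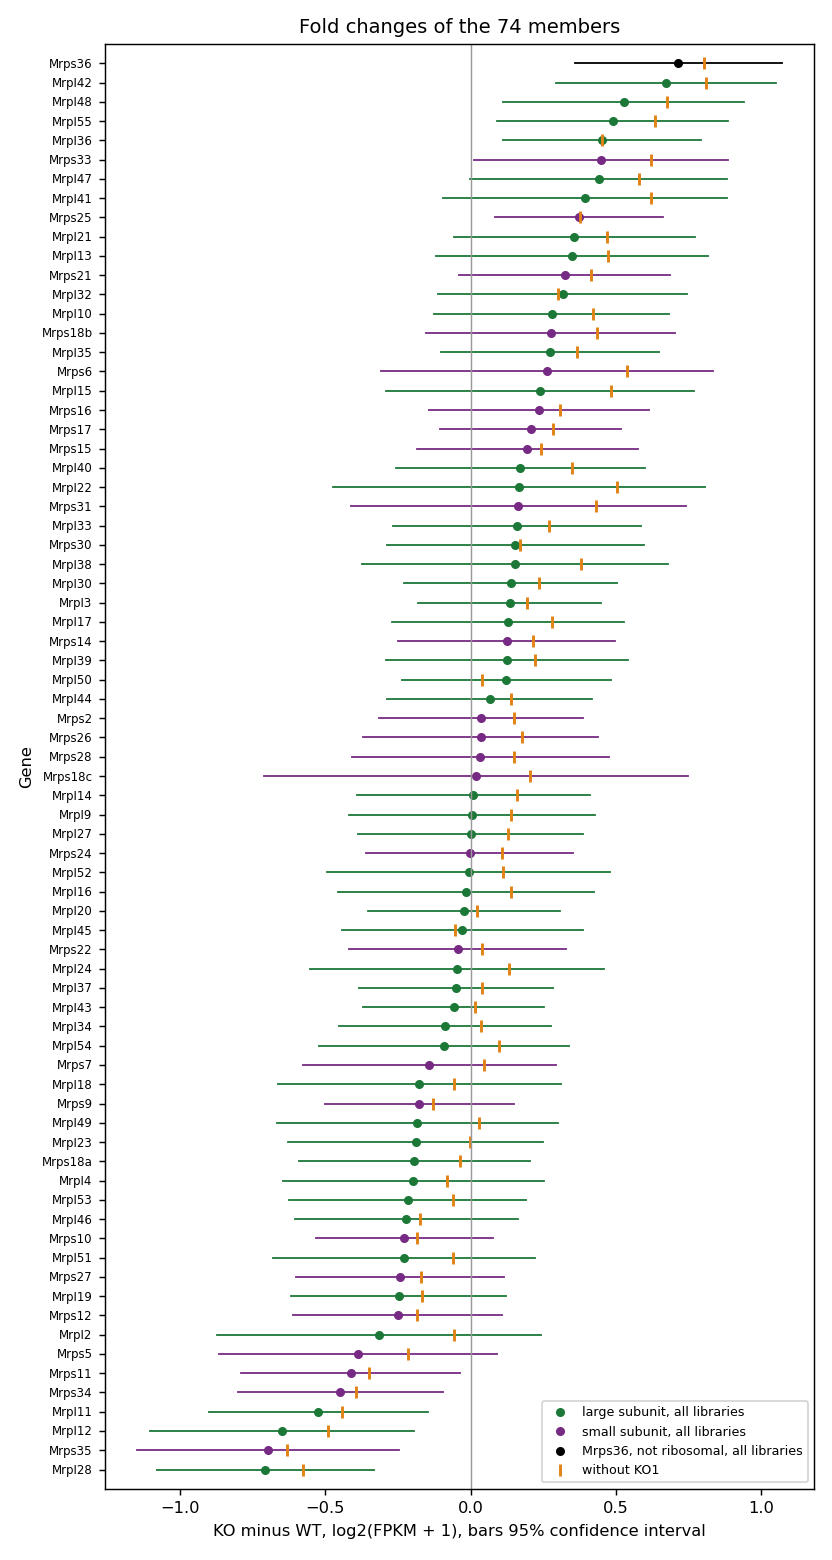
Fold change of each of the 74 members (KO minus WT, log2(FPKM + 1)), with dots for all libraries, bars for the 95% confidence interval and ticks for the fit without KO1. The dots run from -0.71 for Mrpl28 to 0.72 for Mrps36, and most ticks lie to the right of their dots.

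On the higher side, Mrps36 had the smallest p of all members. It stood at 184.1, 271.4, 231.1 and 209.1 FPKM in KO1 to KO4, against 137.4, 132.0 and 134.3 FPKM in WT1 to WT3. All KO values lay above all WT values, and the WT libraries were close together. The means were 224 ± 37 FPKM in KO (SD, n = 4) and 135 ± 2.71 FPKM in WT (SD, n = 3). On the log2 scale KO was 0.72 above WT, with an SE of 0.16 and a 95% interval of 0.36 to 1.07 (limma adjusted p = 0.052). Of the 31-mers of Mrps36, 21.0% occur in other genes, the pseudogene Mrps36-ps1 sharing the most. The value of Mrps36 can thus include reads of such copies.

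Mrpl42, a mitochondrion-specific large subunit protein, showed the same order. It stood at 157.6, 219.2, 238.7 and 238.5 FPKM in KO1 to KO4, against 128.6, 134.7 and 131.9 FPKM in WT1 to WT3. All KO values lay above WT, with KO1 nearest to it. The log2 fold change was 0.67 (SE 0.17, limma adjusted p = 0.078). Other genes hold 7.5% of the 31-mers of Mrpl42, Gm6419 sharing the most.

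Mrpl36, the counterpart of bacterial bL36, stood at 170.8, 187.9, 161.0 and 163.2 FPKM in KO1 to KO4, against 104.0, 132.1 and 139.3 FPKM in WT1 to WT3. The groups did not overlap, and WT1 was the lowest library (log2 fold change 0.45, limma adjusted p = 0.16). Its exons overlap those of Ndufs6, a subunit gene of respiratory complex I. Mrps25, a mitochondrion-specific small subunit protein, was the least variable member, with a within-group SD of 0.06 on the log2 scale against a median of 0.27 over members. It stood at 28.4, 30.5, 28.3 and 27.3 FPKM in KO1 to KO4, against 22.2, 20.9 and 22.5 FPKM in WT1 to WT3, and the groups did not overlap (0.37, limma adjusted p = 0.17). The exons of Mrps25 overlap those of Nr2c2 and 68.9% of its 31-mers are shared with other genes, so its reads cannot be assigned to it with certainty.

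Mrpl48, a mitochondrion-specific protein, and Mrpl55, the counterpart of bacterial bL31, completed the 6 with the smallest p among those with positive fold changes. Mrpl48 stood at 50.0, 68.8, 79.9 and 80.4 FPKM in KO1 to KO4, against 40.2, 56.2 and 46.7 FPKM in WT1 to WT3 (0.53, limma adjusted p = 0.17). Mrpl55 stood at 49.9, 64.7, 84.4 and 77.5 FPKM in KO1 to KO4, against 45.2, 46.4 and 52.8 FPKM in WT1 to WT3 (0.49, limma adjusted p = 0.18). In both genes KO1 lay within the WT range and the other KO libraries lay above it. Exons of Mrpl48 overlap those of Rab6a, and other genes hold 16.6% of its 31-mers, Rab6a sharing the most.

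On the lower side, Mrpl28, the counterpart of bacterial bL28, had the smallest p. It stood at 31.5, 45.4, 46.4 and 44.4 FPKM in KO1 to KO4, against 79.5, 63.9 and 62.7 FPKM in WT1 to WT3. All KO values lay below WT, KO1 the lowest. The means were 41.9 ± 7 FPKM in KO (SD, n = 4) and 68.7 ± 9.37 FPKM in WT (SD, n = 3). This gave -0.71 on the log2 scale, with an SE of 0.17 and a 95% interval of -1.08 to -0.33 (limma adjusted p = 0.063). None of its 31-mers occurs in other genes.

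Mrps35, a mitochondrion-specific small subunit protein, stood at 7.4, 12.0, 10 and 6.1 FPKM in KO1 to KO4, against 15.2, 13.8 and 14.8 FPKM in WT1 to WT3. The groups did not overlap (log2 fold change -0.70, limma adjusted p = 0.11). Mrpl12, the protein of the stalk that recruits translation factors to the large subunit, stood at 46.2, 57.3, 93.9 and 69.6 FPKM in KO1 to KO4, against 103.7, 100.7 and 100.9 FPKM in WT1 to WT3 (-0.65, limma adjusted p = 0.135). The WT libraries were close together and the KO libraries were spread from 46.2 to 93.9 FPKM without reaching them. Other genes hold 15.9% of the 31-mers of Mrpl12, and Gm16755, which overlaps it, shares the most. Mrpl11, at the base of the stalk, stood at 13.7, 18.6, 20.3 and 14.0 FPKM in KO1 to KO4, against 25.7, 25.1 and 21.6 FPKM in WT1 to WT3 (-0.53, limma adjusted p = 0.14). Mrpl10, which holds Mrpl12 on the ribosome, had a log2 fold change of 0.28 (limma adjusted p = 0.44), and it was named after its values were seen.

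Mrps34, a mitochondrion-specific protein, stood at 34.3, 35.4, 46.2 and 39.4 FPKM in KO1 to KO4, against 63.0, 50.2 and 47.0 FPKM in WT1 to WT3 (-0.45, limma adjusted p = 0.17). The groups did not overlap, but its exons overlap those of Nme3, and 73.8% of its 31-mers are not its own. Mrps11, the counterpart of bacterial uS11, stood at 13.8, 13.1, 18.4 and 19.1 FPKM in KO1 to KO4, against 22.4, 23.3 and 19.0 FPKM in WT1 to WT3 (-0.41, limma adjusted p = 0.22). KO4 and WT3 crossed narrowly. Mrpl46, which shares the head-to-head region shown above, had a log2 fold change of -0.22, and transcripts of this pair overlap in the annotation. Mrps27, given above, and Mrps10 were the other members whose KO values all lay below WT.

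**Figure D3:**
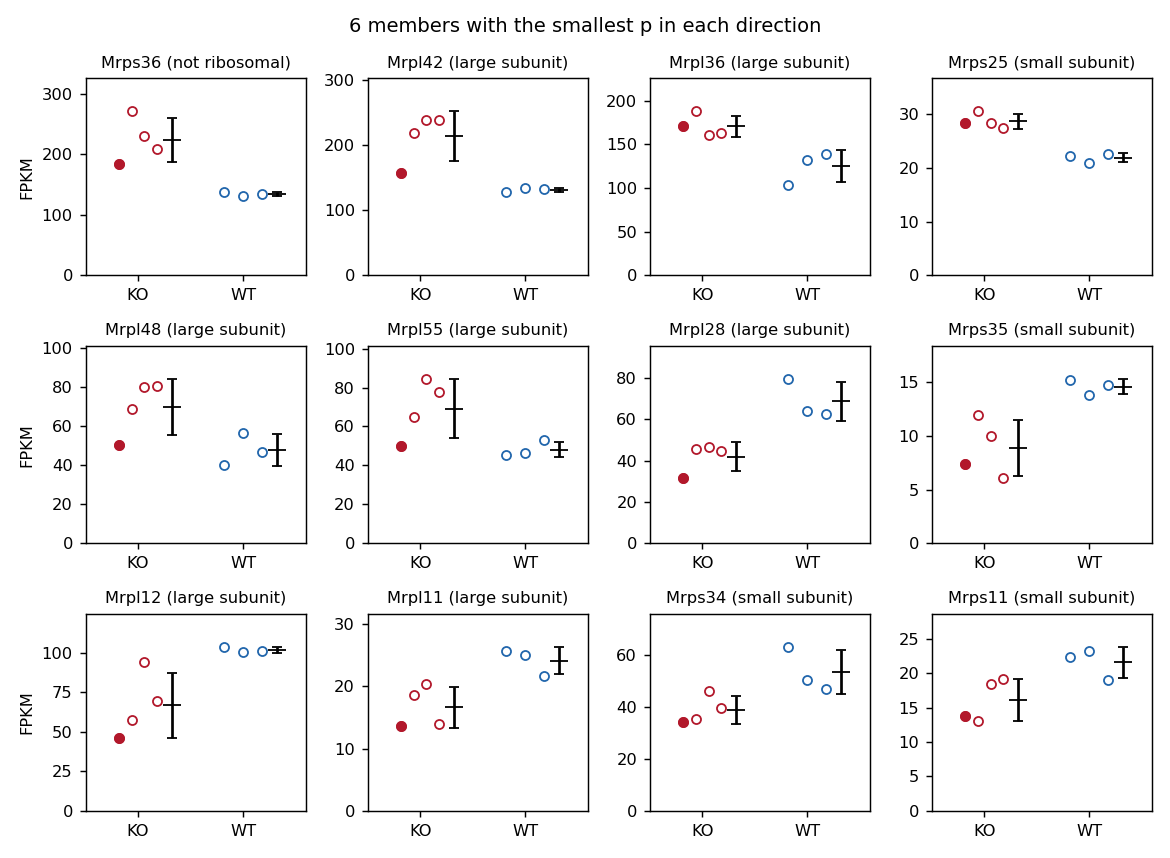
FPKM in each library for the 6 members with the smallest p in each direction, KO at the left (red) and WT at the right (blue), with the filled red dot for KO1 and black bars for the mean and SD. In Mrps36, Mrpl42, Mrpl36, Mrps25, Mrpl28, Mrps35, Mrpl12, Mrpl11 and Mrps34 the groups do not overlap.

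KO1 had the lowest value of the 7 libraries in 47 of the 74 members (63.5%), where it was the lowest library in 25.3% of all tested rows. It was lowest in 32 of 48 large and 15 of 25 small subunit members. By Dixon's ratio, the gap to the nearest library over the range of the group, KO1 stood apart below the other 3 KO libraries in 6 members (8.11%), against 1.4% of all tested rows, and some KO library stood apart on either side in 6.89% of all rows. KO3 was the highest library in 32 members (43.2%, against 16.2% of all rows). Summed over the members, the level was 4049, 5521, 6187 and 5337 FPKM in KO1 to KO4, against 4789, 4829 and 4690 FPKM in WT1 to WT3. The WT libraries lay close together and the KO libraries lay on both sides of them. Summed subunits of other names, listed below, were also lowest in KO1 (202.7 FPKM against 253.2 to 328.0 in KO2 to KO4 and 261.0 to 272.0 in WT). Summed assembly genes were lowest there too (215.7 against 252.4 to 299.0 and 263.7 to 278.7). So were membrane, import and matrix genes (2642 against 3343 to 3731 and 2791 to 3165). Sums of translation factors, mitochondrial DNA genes and regulators were not lowest in KO1. As a share of the FPKM summed over all rows, the members made up 1.07%, 1.19%, 1.21% and 1.1% in KO1 to KO4, against 1.09%, 1.11% and 1.12% in WT1 to WT3. The members' median deviation from the WT mean was -0.35 in KO1 on the log2 scale, and 0.12, 0.27 and 0.04 in KO2 to KO4, while the median over all tested rows in these libraries was between 0.00 and 0.06. Summed markers of medium spiny neurons, other interneurons, oligodendrocytes and astrocytes were highest in KO1, and their part in the low member values was not tested. In these bulk samples, fewer cells of a type and less RNA per cell cannot be told apart.

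**Figure D4:**
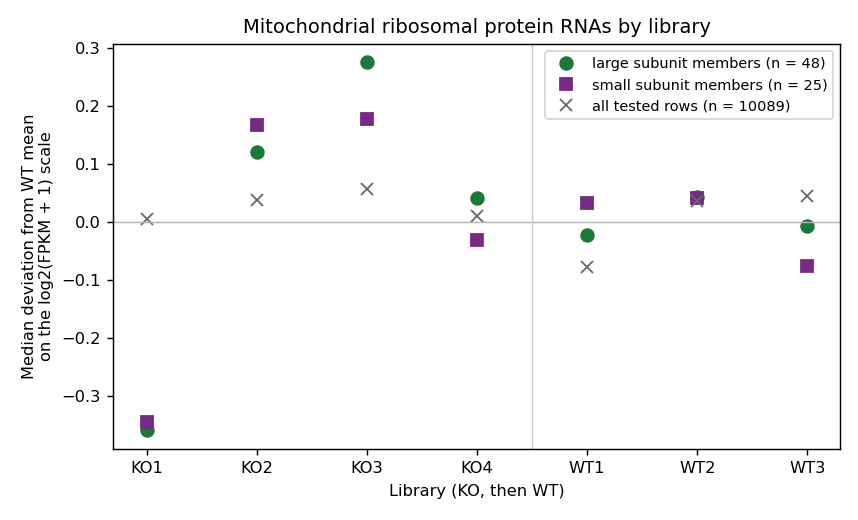
Median over large subunit members, small subunit members and all tested rows of the deviation from the WT mean on the log2(FPKM + 1) scale, by library, KO at the left. Both subunits lie near -0.35 in KO1 and above 0.1 in KO2 and KO3, and all tested rows lie within 0.08 of 0.

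When each library was left out in turn, leaving out KO1 was the 1 case in which members passed. Without KO1, 7 of the 74 members differed, 6 higher in KO (8.11%) and 1 lower (1.35%), where 2.21% and 1.53% of 10063 tested rows did (3.74% in all). At an unadjusted p under 0.05, limma found 22 members higher and 5 lower (29.7% and 6.76%), where 13.2% and 9.5% of all rows were (22.7% in all). The 6 were Mrpl42 (log2 fold change 0.81, limma adjusted p = 0.0060), Mrps36 (0.81, 0.0091), Mrps33 (0.62, 0.023), Mrpl41 (0.62, 0.028), Mrpl48 (0.68, 0.032) and Mrpl55 (0.63, 0.033), the second value in each bracket being the limma adjusted p. The 1 lower was Mrpl28 (-0.58, limma adjusted p = 0.040). Fold changes without KO1 were positive for 53 of 74 members, with a median of 0.15, where the median of all tested rows was 0.03 and 54.1% of rows were positive. The medians of the large and the small subunit were 0.14 and 0.15. The groups then did not overlap for 22 members above WT (29.7%, against 15.4% of all rows) and for 7 below WT (9.46%, against 11.8%), where 27.3% of all rows did not overlap in either direction. This fit compares 3 KO with 3 WT libraries, and with all 4 KO libraries none of these 7 calls was made. The sign of the members' median depended on the library left out. It was -0.07 without KO3 and -0.01 without KO2, against 0.15 without KO1.

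Mrps33 and Mrpl41, which had not been among the 12 members above, show what KO1 changed. Mrps33 stood at 220.1, 343.0, 362.0 and 362.7 FPKM in KO1 to KO4, against 206.8, 246.7 and 240.6 FPKM in WT1 to WT3. Mrpl41, a mitochondrion-specific large subunit protein, stood at 63.3, 122.5, 130.7 and 106.7 FPKM in KO1 to KO4, against 73.7, 84.8 and 74 FPKM in WT1 to WT3. In both, KO2 to KO4 lay above all WT libraries, and KO1 lay within the WT range of Mrps33 and below that of Mrpl41. Of the 31-mers of Mrpl41, 21.1% occur in other genes, Gm6434 sharing the most. For Mrps33 the share was 15.6%, with Gm5776 sharing the most. The values of both members can include reads of such genes.

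Fold changes went with base composition. Across the 74 members Spearman's rho between the log2 fold change and the mean GC content of the annotated transcripts was -0.38, and across 10023 tested rows it was also -0.38. Without KO1 the values were -0.33 and -0.28. The members with positive fold changes and the smallest p included Mrps36 and Mrpl42, with 46.5% and 45.6% GC, and those with negative ones included Mrpl28, Mrpl12 and Mrps34, with 57.4%, 56.0% and 60.4% GC. The median over members was 51.21% GC. Of the 12 members above, Mrpl36 (53.8%) and Mrpl55 (54.8%) had positive fold changes and a GC content over this median, and Mrps35 (48.3%) and Mrpl11 (51.16%) had negative ones and a GC content under it. With each library's trends over GC content and length removed, the fold changes of Mrps36, Mrpl42 and Mrpl28 were 0.61, 0.55 and -0.55 (limma adjusted p = 0.075, 0.13 and 0.074), and that of Mrps34 was -0.24. Those of Mrps35, Mrpl55, Mrpl36 and Mrpl11 grew in size, to -0.78, 0.58, 0.52 and -0.54 (limma adjusted p = 0.075, 0.091, 0.15 and 0.11). The rest of the 12 shrank. Without KO1 and with these trends removed, the same 7 members passed, where 3.41% of all rows did.

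**Figure D5:**
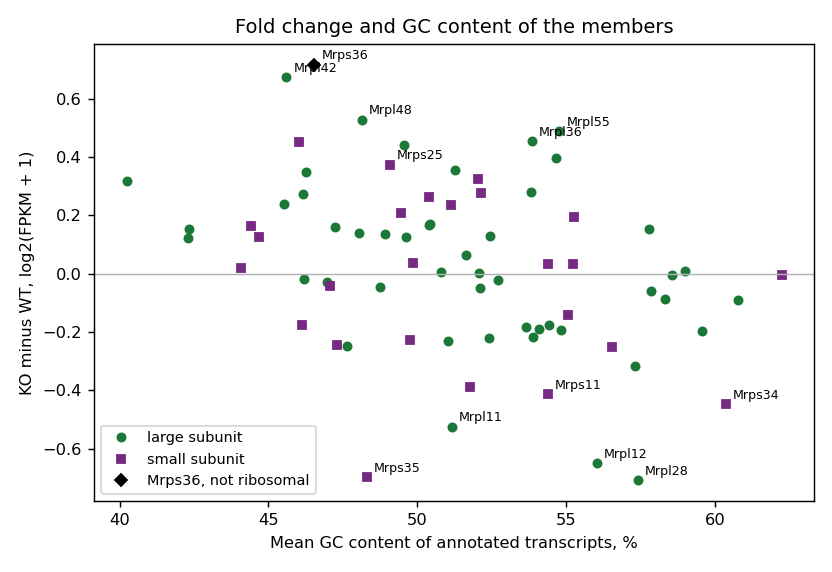
Fold change of each member (KO minus WT, log2(FPKM + 1)) against the mean GC content of its annotated transcripts (%), by subunit. Mrps36 and Mrpl42 lie at upper left below 47% GC, and Mrpl28, Mrpl12 and Mrps34 lie at lower right above 56% GC.

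The most variable member was Mrps18c, the counterpart of bacterial bS18, with a within-group SD of 0.62 on the log2 scale. It stood at 70.6, 150.0, 167.2 and 66.0 FPKM in KO1 to KO4, against 152.9, 83.2 and 84.9 FPKM in WT1 to WT3. High values near 150 FPKM and low values under 90 FPKM occurred in both groups, and the log2 fold change was 0.02 (limma adjusted p = 0.98). Of its 31-mers, 34.5% occur in other genes. Mrpl22 followed with an SD of 0.53, with 14.9 FPKM in KO1 and 38.5 to 40.3 FPKM in KO2 to KO4, against 24.1 to 31.1 FPKM in WT. Other genes hold 29.8% of the 31-mers of Mrpl22, Gm6997 sharing the most. Mrps18c and Mrpl22 were chosen by this spread.

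Other genes of mitochondrial translation gave 0 calls with limma when all libraries were used. In that fit 1.74% of all tested rows passed, and 18.8% had an unadjusted p under 0.05. Of the mitochondrial ribosomal subunits with symbols of other kinds, 6 were tested and 0 passed (1 at an unadjusted p under 0.05; median log2 fold change 0.00). Gadd45gip1, a large subunit protein at the exit of the protein tunnel, stood at 8.25 ± 1.97 FPKM in KO (SD, n = 4) and 12.4 ± 2.4 FPKM in WT (SD, n = 3), with a log2 fold change of -0.54 (limma adjusted p = 0.19), and Aurkaip1, a small subunit protein, had one of -0.40 (0.38). Of 14 mitochondrial translation factors and RNA-binding proteins, 0 passed (1 unadjusted; median -0.01). Slirp, which with Lrpprc stabilizes mitochondrial messenger RNAs, stood at 258.8, 328.5, 344.1 and 260.8 FPKM in KO1 to KO4, against 235.1, 133.0 and 172.6 FPKM in WT1 to WT3, a log2 fold change of 0.75 (limma adjusted p = 0.093), and its partner Lrpprc had one of -0.33 (0.36). The groups did not overlap for Slirp.

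Of 22 genes for assembly of the mitochondrial ribosome and modification of its RNA, 0 passed (3 unadjusted; median -0.01). Rbfa, which acts in the maturation of the small subunit RNA, stood at 5.7, 8.9, 8.8 and 8.7 FPKM in KO1 to KO4, against 12.8, 15.7 and 14.5 FPKM in WT1 to WT3, without overlap (log2 fold change -0.78, limma adjusted p = 0.055), and Rpusd3, a pseudouridine synthase family member, had a fold change of -0.50 (0.23). Of 9 genes for transcription and replication of mitochondrial DNA, 0 passed (0 unadjusted; median 0.11), with Tefm at 0.27 and Tfam at 0.30. Of 8 nuclear regulators of mitochondrial biogenesis, 0 passed (2 unadjusted; median 0.06). Esrra, a nuclear receptor that activates genes of mitochondrial proteins, stood at 2.5, 2.4, 3.0 and 2.1 FPKM in KO1 to KO4, against 4.5, 5.4 and 4.8 FPKM in WT1 to WT3, without overlap (-0.76, limma adjusted p = 0.056), and the coactivator gene Pprc1 had a fold change of -0.54 (0.13).

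Of 22 genes of mitochondrial membranes, import and matrix, 0 passed (2 unadjusted; median 0.08), with fold changes of -0.60 for Tomm40, the pore of the outer membrane translocase, and -0.42 for Timm44, of the import motor (limma adjusted p = 0.16 and 0.23). Without KO1, Slirp (log2 fold change 0.81, limma adjusted p = 0.040) and the matrix co-chaperonin gene Hspe1 (0.70, 0.023) passed as higher in KO, and Rbfa (-0.64, 0.040) and Esrra (-0.76, 0.046) passed as lower. The chaperonin gene Hspd1, of the same list as Hspe1, had a log2 fold change of -0.28 in that fit (limma adjusted p = 0.36). In that fit 3.74% of all tested rows passed. With the GC and length trends removed as well, Hspe1 still passed (0.60, limma adjusted p = 0.032) and Slirp, Rbfa and Esrra did not. The genes encoded in mitochondrial DNA were not analysed here.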

How the data were processed

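Ribosome-bound RNA of 4 KO and 3 WT pools was measured, grouped by the sample titles. Per the submitters' processing notes, mm10, Cufflinks 2.1.1, TopHat, TopHat2 2.0.8 and DESeq 1.10.1 were used, without the role of each. The values were FPKM deposited by the authors per library, rounded to 1 decimal, so that the depth is unknown and no counting intervals are given. The sources used here do not give the annotation, the use of strand or the handling of multiple matches. Per the labels' protocols, 1 ng of RNA per sample was reverse transcribed with an Ovation kit. A second table deposited by the authors lists 113 genes with group means, the fold (KO over WT), the log2 fold and p-values. It held 0 of the members and was not used.

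FPKM were transformed to log2(FPKM + 1), 10089 of 22016 rows averaged 1 FPKM or more and were kept, and limma 3.58.1 (two-sided, eBayes with a trend; R 4.3.3) compared KO with WT. The fit was tested on simulated data. Replicates were pools of mice, and p-values measure the spread between pools. GENCODE M21 (mm10) gave transcript length, GC content, exon overlaps and 31-mers shared with other genes on either strand, and 98.4% of rows matched by symbol. Named genes were S100a10, the 6 members with the smallest p in each direction, the 3 highest and 2 lowest by level in each subunit, and 2 genes of each other list, besides any that passed. The members and lists were chosen with earlier results of these data known. Same-numbered KO and WT libraries did not deviate together. Alternatives were pseudocounts, filters, normalization, variance models, summed rows, a term for Y-linked RNA, GC and length trends, a replicate block and each library left out. The Y-linked term marked libraries with any Y-linked RNA, which not all had, and the sex makeup of each pool is not given here. Tables and figures used pandas 2.3.3 and matplotlib 3.10.9 in Python 3.11.15.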

Additional observations from a re-analysis of the deposited data

Results flagged for a closer look

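A single library stood apart from the other 3 KO libraries, by Dixon's ratio of its gap to the range of the group, in 6 of the 74 members, and the library was KO1, the lowest, each time. Chance flags about 1 in 20 groups. KO1 stood apart in this way, below the others, in 1.4% of all tested rows, and any KO library on either side in 6.89%. Mrpl10 stood at 34.6 FPKM in KO1 and at 50.3 to 53.0 FPKM in KO2 to KO4. Mrpl22 stood at 14.9 FPKM in KO1 and at 38.5 to 40.3 FPKM in the others. Mrpl28 stood at 31.5 against 44.4 to 46.4 FPKM, Mrpl54 at 32.3 against 53.3 to 56.5 FPKM, Mrps24 at 28.5 against 39.0 to 39.7 FPKM, and Mrps33 at 220.1 against 343.0 to 362.7 FPKM. The summed level of the members did not stand apart by this measure.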

How the results depend on the processing

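Over all rows, limma calls numbered 176. They numbered 1689 with array weights, 100 without trend, 83 without a filter, 28 to 376 with a library left out, and 343 without KO1 and with GC and length trends removed, an alternative added after the data were seen. Called members numbered 0, and 15 with array weights (16.7% of all rows were called there), 1 with the filter at 5 FPKM (Mrps36), 3 with quantile normalization (Mrpl42, Mrpl28 and Mrps36), 0 to 7 with a library left out, and 7 without KO1 and with the trends removed. The cause of the array weight counts was not tested. The median fold change of the members was -0.02 with quantile normalization and -0.07 to 0.15 with a library left out. With the replicate block, calls over all rows numbered 18, and 16 with the trends removed as well. The fold change of S100a10 was -1.22 with the replicate block (limma adjusted p = 0.083) and -1.58 to -1.22 with a library left out, the call being lost without WT1 (adjusted p = 0.063) or WT2 (0.058). Correlations across rows of the deviations from group means were -0.22, 0.02 and -0.26 for same-numbered KO and WT libraries. For other pairs they ran from -0.12 to 0.31. Deviations from a group mean cancel within the group, so these values cannot decide whether the numbers pair the libraries.

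Array weights gave 1, 1, 3, 1, 3 and 4 calls in the lists of other subunits, translation factors, assembly, mitochondrial DNA, regulators and membrane genes. These lists had 6, 14, 22, 9, 8 and 22 tested genes, and 16.7% of all rows were called in that setting. The assembly list had 1 call with the filter at 5 FPKM, with median centring and with quantile normalization, the regulators 1 with median centring and with quantile normalization, and the membrane genes 1 without KO1 and with the trends removed. With a library left out these lists had 0 to 1 calls. The median of the mitochondrial DNA list was 0.23 with the filter at 5 FPKM, 0.21 with the Y-linked term, and 0.050 to 0.19 with a library left out. That of the regulators was 0.23 with that filter, -0.13 with array weights, -0.10 with the replicate block and the trends removed, and -0.12 to 0.14 with a library left out.

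Among genes whose fold change the report gives, those of Mrpl20, Mrpl45 and Mrps18c, all near 0, turned sign. Mrpl20 was 0.00071 with the trends removed, 0.0011 with array weights, 0.052 with the replicate block and the trends removed, 0.017 with the replicate block, 0.026 with the Y-linked term, 0.010 without KO1 and with the trends removed, and -0.087 to 0.021 with a library left out. Mrpl45 was 0.070 with the replicate block, 0.0080 with the Y-linked term, and -0.11 to 0.11 with a library left out. Mrps18c was -0.14 with the trends removed, -0.065 with quantile normalization and -0.21 to 0.30 with a library left out. Of the members that appear for the low value in KO1, Mrps24 and Mrpl54 turned from -0.00 and -0.09 to 0.24 and 0.13 with the trends removed. Rounding to 0.1 FPKM limits the lowest members.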
